A study of Homo sapiens with 6 samples.

Results

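The 36 genes described here are the aminoacyl-tRNA synthetases of the cytosol and the mitochondria, taken by name from a table of 35035 genes: 20 cytosolic genes, whose symbols carry no suffix 2, and 16 mitochondrial genes, whose symbols end in 2. All 36 were expressed highly enough to be among the 19349 genes tested. They were measured by RNA sequencing in HK-2, an immortalised epithelial line from the human kidney proximal tubule. In the circAASS group the cells carried a plasmid for overexpression of circAASS, a circular RNA named after the gene AASS, and in the empty vector group the plasmid without it, with 3 libraries each. The cells of both groups went through 1% oxygen for 24 h and 12 h of reoxygenation, a culture model of kidney ischaemia and reperfusion, so every value below is from cells after that treatment and none from cells kept at normal oxygen. The series' design text places the profiling at 24 h after treatment, and the time of the sample labels is used here.

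Each synthetase joins its amino acid to the matching transfer RNA (tRNA) at the cost of ATP, and the charged tRNA then brings the amino acid to the ribosome. Human cells hold separate nuclear genes for most cytosolic and mitochondrial synthetases, while GARS (glycine) and KARS (lysine) serve both places and EPRS joins glutamate and proline in a single cytosolic protein. Many cytosolic synthetase genes are known targets of ATF4, the transcription factor of the integrated stress response, which is translated when the initiation factor eIF2 is phosphorylated, for instance by the kinase EIF2AK4 when uncharged tRNA builds up.

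Library totals were 47384879 to 58179563 reads in the circAASS libraries and 45148425 to 52470055 reads in the empty vector libraries, with the mates of a read pair mostly counted separately. Values are deposited RPKM, reads relative to gene length and library size, and a log2 fold change is circAASS over empty vector on the scale of log2(RPKM + 0.1) after a scaling of the libraries that lifts the circAASS values by a few percent against the others. The labels do not say that the libraries came from separate cultures, so p-values reflect only how these libraries vary among themselves, which may be technical. Of 4 general epithelial markers, KRT8, KRT18 and EPCAM stood at 1 RPKM or more in all libraries and CDH1 under 0.1 RPKM, and 7 of 11 measured proximal tubule markers, LRP2, CUBN and AQP1 among them, stayed under 0.1 RPKM in every library. The summed proximal tubule markers came to 13.6 to 14.5 RPKM in circAASS libraries and 25.6 to 27.9 RPKM in empty vector libraries, and the part of this shift in the results below was not tested. All 3 markers each of endothelium and collecting duct were under 0.1 RPKM, as were 2 of 3 each for leukocytes (PTPRC, CD3E) and fibroblasts (PDGFRB, DCN). The third of each, CD68 and COL1A1, stood at 1 RPKM or more in all libraries. The leukocyte list, nearly all of it CD68, summed to 78.2 to 100.2 RPKM with circAASS and 102 to 106 RPKM with empty vector, and its part in the results was not tested. In bulk RNA, fewer cells of a kind and less RNA per cell cannot be told apart.

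With circAASS, 12 of the 20 cytosolic synthetases rose and 0 fell by limma at a Benjamini-Hochberg adjusted p under 0.05 (1 fell at an unadjusted p under 0.05, FARSB), whereas of the 16 mitochondrial synthetases 2 rose and 2 fell. The cytosolic rises were led by TARS, GARS and CARS, at about 1.7 to 1.8 times the empty vector level. Of all 19349 genes tested, 16.0% rose and 16.3% fell, 32.3% in all, so the share of cytosolic members that rose, 60%, stood above that background, and the mitochondrial shares, 12.5% in each direction, were near it. This background was not matched for level. Among tested genes the cytosolic members lay at level percentiles of 59.7 to 97.0, and the mitochondrial members at 20.1 to 92.4. The median log2 fold change was 0.25 over the cytosolic genes, -0.10 over the mitochondrial genes and -0.01 over all genes tested. In deposited RPKM, 11 cytosolic genes were higher and 3 lower with no overlap between the groups, and 3 mitochondrial genes were higher and 6 lower, beside 17.1% of all tested genes higher and 30.3% lower by that measure, 47.5% in all.

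**Figure D1:**
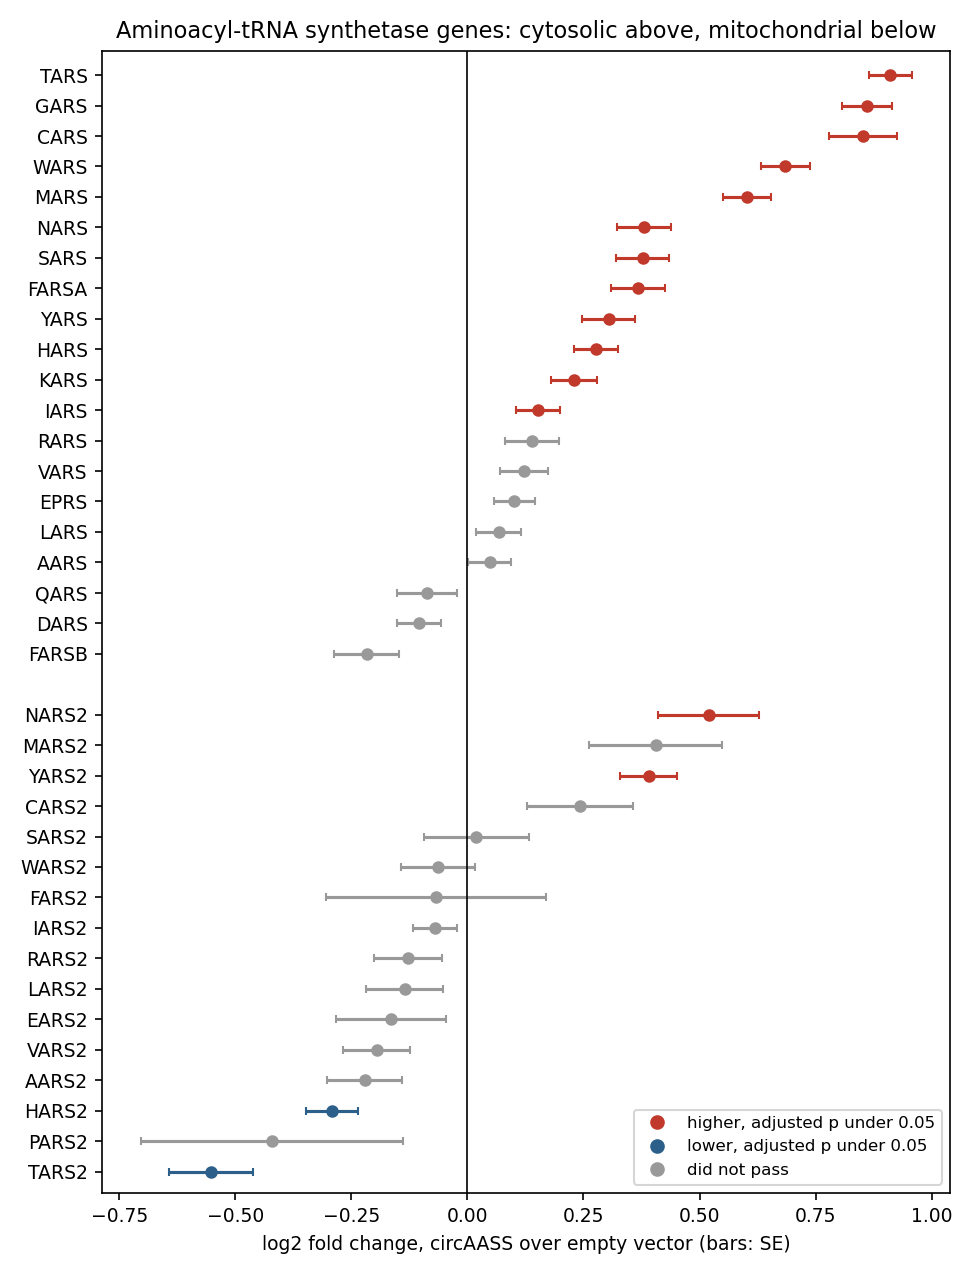
Log2 fold change (circAASS over empty vector, log2(RPKM + 0.1) scale) of each of the 36 synthetase genes with its standard error, cytosolic and mitochondrial genes apart. The cytosolic genes reach from -0.22 to 0.91 and the mitochondrial genes from -0.55 to 0.52.

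As a sum of deposited RPKM, the 20 cytosolic genes held 638 ± 6.45 RPKM in circAASS libraries and 523 ± 5.67 RPKM in empty vector libraries (SD, n = 3 each), 22.0% more. The 16 mitochondrial genes summed to 82.6 ± 3.60 RPKM with circAASS and 92.7 ± 1.45 RPKM with empty vector (SD, n = 3 each), 10.9% less. The libraries of the groups overlapped in neither sum. Both sums leave out the scaling, which lifts circAASS values by a few percent and so narrows the mitochondrial gap and widens the cytosolic one. IARS2 averaged 28.7 RPKM with circAASS and 31.6 RPKM with empty vector, and RARS2 13.2 RPKM and 15.2 RPKM. These are the most highly expressed mitochondrial genes, and neither passed (limma adjusted p = 0.296 and 0.219). The lower sum is thus not a fall across the list, in which 2 genes rose and 2 fell. Cytosolic genes were also far more highly expressed: over all 6 libraries their median level was 24.0 RPKM, with 18 of 20 at 10 RPKM or more, against a median of 2.90 RPKM and 2 of 16 for the mitochondrial genes. The least covered cytosolic value rested on 518 reads and the least covered mitochondrial value on 38.

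The threonine synthetase gene TARS (chr5:33440696-33469539, GENCODE 29 on GRCh38, as all gene positions here) had 65.7, 71.5 and 69.8 RPKM in circAASS libraries, against 38.6, 37.8 and 39.2 RPKM in empty vector libraries. The glycine synthetase gene GARS (chr7:30594681-30634033) had 62.7, 65 and 64.2 RPKM with circAASS and 39.2, 35.1 and 36.8 RPKM with empty vector. The cysteine synthetase gene CARS (chr11:3000922-3057613) had 11.4, 11.7 and 10.9 RPKM with circAASS and 7.13, 6.28 and 6.26 RPKM with empty vector. In each of these genes every circAASS library lay well above every empty vector library. The log2 fold changes were 0.91 ± 0.05 for TARS (SE, limma adjusted p = 7.98e-05), 0.86 ± 0.05 for GARS (adjusted p = 0.000155) and 0.85 ± 0.07 for CARS (adjusted p = 0.000427). With circAASS TARS averaged 69.0 ± 2.94 RPKM and the serine gene SARS 64.6 ± 2.95 RPKM (SD, n = 3 each), and their libraries overlapped. With empty vector TARS averaged 38.5 ± 0.682 RPKM and SARS 52.2 ± 1.13 RPKM (SD, n = 3 each).

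WARS, the tryptophan synthetase gene, which interferon induces in many cells, had 15.6, 14.8 and 15.8 RPKM in circAASS libraries, against 10.4, 9.67 and 10.0 RPKM in empty vector libraries. MARS, which charges both initiator and elongator methionine tRNA, had 21.6, 24.1 and 22.7 RPKM with circAASS and 15.4, 15.8 and 16.0 RPKM with empty vector. Neither gene's groups overlapped, and the log2 fold changes were 0.68 ± 0.05 for WARS (SE, limma adjusted p = 0.00031) and 0.60 ± 0.05 for MARS (adjusted p = 0.000427). Of the exon bases of WARS (chr14:100333788-100376805), 10.6% are covered by other genes. In MARS (chr12:57475445-57517569) the share is 13.3%, with ARHGAP9 and DDIT3 among the overlapping genes and 12.4% on the opposite strand, and reads there are uncertain because the use of strand in counting is not given in the sources used here.

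NARS (chr18:57600656-57622213), which charges asparagine, had the highest level of all members, with 87.3, 83.5 and 80.3 RPKM in circAASS libraries and 69.5, 67.2 and 66.1 RPKM in empty vector libraries. SARS (chr1:109213918-109238169), which charges serine and also selenocysteine tRNA, had 67.9, 63.6 and 62.2 RPKM with circAASS and 51.3, 53.5 and 51.9 RPKM with empty vector. Both had the same log2 fold change of 0.38 ± 0.06 (SE, limma adjusted p = 0.00312 and 0.00302), a smaller one than in the genes above, and again no library of one group reached into the other. FARSA (chr19:12922479-12934037), the alpha subunit of the phenylalanine enzyme, averaged 33.6 ± 0.895 RPKM with circAASS and 27.4 ± 1.78 RPKM with empty vector (SD, n = 3 each; log2 fold change 0.37 ± 0.06 SE, limma adjusted p = 0.0034). Its partner FARSB (chr2:222570536-222656337), the beta subunit, did not rise. FARSB had 3.21, 3.48 and 3.40 RPKM with circAASS and 3.85, 4.24 and 4.29 RPKM with empty vector, with a log2 fold change of -0.22 ± 0.07 (SE) that missed the threshold (limma adjusted p = 0.0506). Every circAASS library of FARSB was below every empty vector library, and the gene passed the threshold as lower under 3 alternative settings, with adjusted p down to 0.0242.

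The smaller cytosolic rises were those of YARS, HARS, KARS and IARS. The tyrosine gene YARS (chr1:32775237-32818153) averaged 18.6 ± 0.61 RPKM with circAASS and 15.8 ± 0.709 RPKM with empty vector, and the lysine gene KARS (chr16:75627474-75648643) 37.1 ± 1.64 RPKM with circAASS and 33.3 ± 1.05 RPKM with empty vector (SD, n = 3 each). Their log2 fold changes were 0.30 ± 0.06 and 0.23 ± 0.05 (SE), with limma adjusted p = 0.00665 and 0.0114, and their groups did not overlap. KARS lost its call with library size as the sole scaling, at an adjusted p = 0.0522. IARS (chr9:92210207-92293756), the isoleucine gene, had 23.9, 26.1 and 26.1 RPKM with circAASS and 23.7, 23.6 and 24.6 RPKM with empty vector. IARS thus overlapped between the groups in deposited RPKM, though not after scaling. Its log2 fold change of 0.15 ± 0.05 (SE) barely passed (limma adjusted p = 0.0448) and was lost under 10 of 15 alternatives, with adjusted p up to 0.294.

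**Figure D2:**
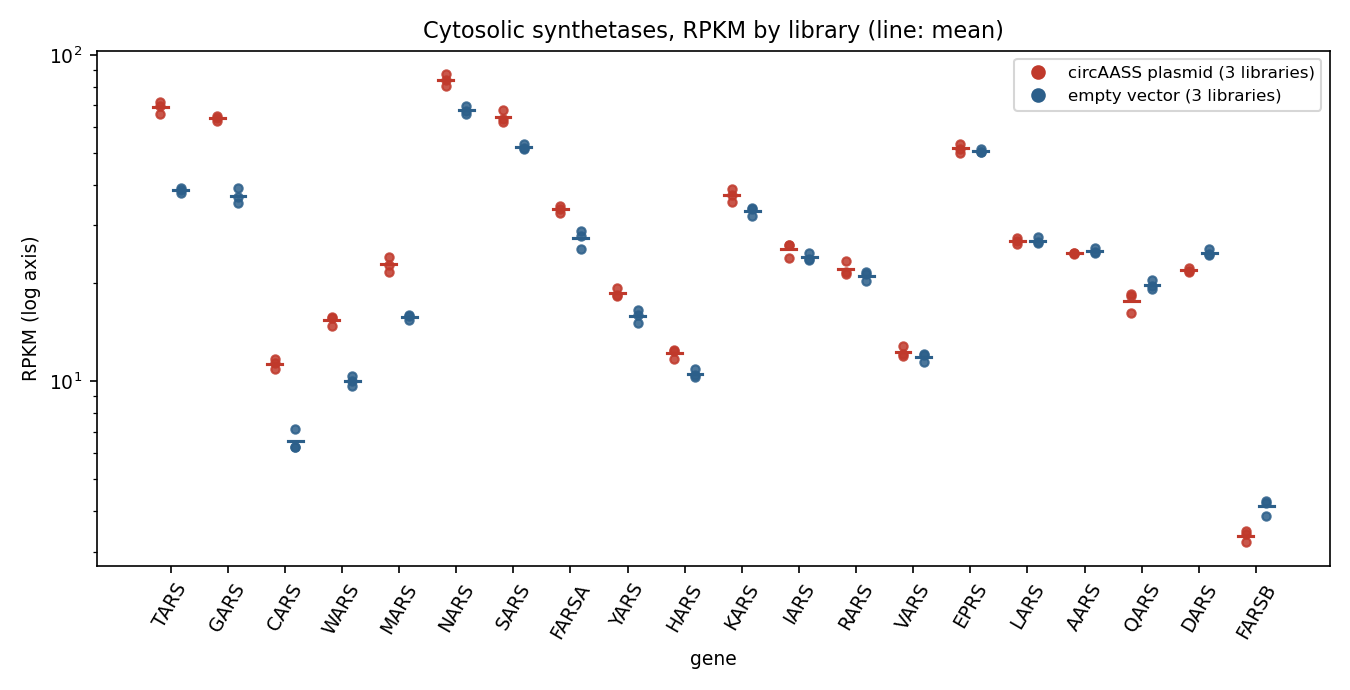
Deposited RPKM (log axis) of the 20 cytosolic synthetases in each library, circAASS left of empty vector for each gene, with the mean as a line. The points of TARS, GARS, CARS, WARS and MARS separate most, and those of LARS and AARS lie on top of each other.

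The other 7 cytosolic genes beside FARSB did not pass the test. RARS (arginine), VARS (valine), EPRS, LARS (leucine) and AARS (alanine) had log2 fold changes of 0.05 to 0.14 and overlapping groups in deposited RPKM. EPRS, for example, had 50.2, 53.5 and 51.6 RPKM in circAASS libraries and 50.3, 50.4 and 51.5 RPKM in empty vector libraries, and AARS had 24.8, 24.7 and 24.5 RPKM with circAASS and 25.6, 24.7 and 24.9 RPKM with empty vector. Scaled values of RARS, VARS and EPRS were higher without overlap, while those of LARS and AARS overlapped. RARS and VARS had an unadjusted limma p of 0.0460 and 0.0465. QARS (glutamine) and DARS (aspartate) were lower in deposited RPKM without overlap. QARS had 18.3, 16.1 and 18.5 RPKM with circAASS and 19.1, 20.4 and 19.5 RPKM with empty vector, and DARS had 22.3, 21.7 and 21.6 RPKM with circAASS and 24.3, 24.5 and 25.4 RPKM with empty vector. After scaling, their log2 fold changes were -0.09 and -0.10 (limma adjusted p = 0.333 and 0.129), and only DARS remained without overlap. DARS passed as lower with library size as the sole scaling (adjusted p = 0.0214).

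The cytosolic enzymes for arginine, aspartate, glutamate and proline, glutamine, isoleucine, leucine, lysine and methionine are held together in the multi-synthetase complex. Of these 8 genes, 3 rose (MARS, KARS and IARS) and 0 fell (0 at an unadjusted p under 0.05, limma), beside 16.0% of all tested genes that rose, and the median log2 fold change was 0.12. The calls of KARS and IARS were lost under alternatives named above. Of the 3 scaffold proteins of the complex, EEF1E1 rose. It had 14.3, 14.5 and 15 RPKM in circAASS libraries and 9.39, 9.75 and 8.05 RPKM in empty vector libraries, well apart, with a log2 fold change of 0.76 ± 0.08 (SE, limma adjusted p = 0.000794); 18.7% of its exon bases are shared with other genes. AIMP2 averaged 13.9 ± 0.466 RPKM with circAASS and 13.5 ± 0.367 RPKM with empty vector, and AIMP1 24.8 ± 1.86 RPKM with circAASS and 27.8 ± 0.469 RPKM with empty vector (SD, n = 3 each). Neither passed (limma adjusted p = 0.131 and 0.335), and 28.9% of the exon bases of AIMP2 overlap another gene.

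Synthetases fall into class I, with a Rossmann fold, and class II, with an antiparallel sheet. Over both compartments, 6 of 19 class I genes rose and 0 fell (1 at an unadjusted p under 0.05 by limma, VARS2), with a median log2 fold change of 0.12. Of 18 class II genes 8 rose and 2 fell, with a median of 0.07. The shares that rose were 31.6% in class I and 44.4% in class II, beside 16.0% of all tested genes. The share of class II that fell, 11.1%, was under the 16.3% of all tested genes. EPRS holds an enzyme of each class and is counted in both. The 5 largest rises included both classes, with CARS, WARS and MARS of class I and TARS and GARS of class II.

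Promoters were searched for the letters TGATGNAA on either strand, the core of the element that ATF4 binds together with C/EBP proteins. RefSeq promoter windows of GRCh38.p14 were at hand for 30 of the 36 members. In the 250 bases before the start, 4 members held a match, AARS, GARS, IARS and YARS2, beside 3.14% of 35116 promoters of all genes and 3.89% of the 27305 genes. Of the 13 risen members with a window 3 had such a match, and of the other 17, 1. With 50 bases after the start added, a window chosen after the data had been seen, 8 of the 30 members held one, beside 3.62% of all promoters and 4.46% of genes. Of the 8 genes, 7 rose with circAASS and AARS did not pass. Among the 13 risen members 7 thus had a match in the longer window, and among the other 17, 1 had. A match is a description of letters and not a measured binding site. The 30 bases around each match are shown because 4 of the 5 genes that rose furthest are among them, and capitals mark the match on the gene's own strand, 5′ to 3′.
TARS, chr5:33440956-33440985, plus strand: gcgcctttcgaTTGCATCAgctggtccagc
GARS, chr7:30594834-30594863, plus strand: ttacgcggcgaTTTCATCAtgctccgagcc
CARS, chr11:3057407-3057436, minus strand: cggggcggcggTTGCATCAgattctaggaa
MARS, chr12:57488053-57488082, plus strand: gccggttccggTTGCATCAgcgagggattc
NARS, chr18:57621804-57621833, minus strand: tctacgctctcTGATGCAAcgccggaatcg
IARS, chr9:92293692-92293721, minus strand: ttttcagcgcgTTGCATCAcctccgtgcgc
YARS2, chr12:32756076-32756105, minus strand: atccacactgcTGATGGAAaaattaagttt
AARS, chr16:70289675-70289704, minus strand: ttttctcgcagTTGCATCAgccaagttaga
TARS, CARS, MARS, IARS and AARS share the 8 letters TTGCATCA, and NARS has their complement read from the other strand. GARS differs from TTGCATCA, and YARS2 from TGATGCAA, at the free base of the motif alone. Counted from the start as base 0, the match lies between bases -13 and 21 in TARS, CARS, MARS, IARS and NARS. It spans -33 to -26 in GARS, -187 to -180 in AARS and -197 to -190 in YARS2. GARS, TARS and CARS each have 2 RefSeq starts, and the match fell in the window of only 1 of them. Their positions are counted from that start.

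Among the mitochondrial genes, those for asparagine and tyrosine rose, and those for threonine and histidine fell. NARS2 (chr11:78435961-78574874) had 3.60, 3.65 and 2.97 RPKM in circAASS libraries, against 2.61, 2.42 and 2.35 RPKM in empty vector libraries. YARS2 (chr12:32727490-32755902) had 4.75, 4.82 and 4.79 RPKM with circAASS and 3.94, 3.73 and 3.78 RPKM with empty vector. Both genes were higher in every circAASS library, with log2 fold changes of 0.52 ± 0.11 for NARS2 and 0.39 ± 0.06 for YARS2 (SE, limma adjusted p = 0.0106 and 0.00352). TARS2 (chr1:150487364-150507609) had 3.59, 3.57 and 3.33 RPKM with circAASS and 4.94, 5.32 and 6.12 RPKM with empty vector. It was lower in every circAASS library, and its log2 fold change of -0.55 ± 0.09 (SE, limma adjusted p = 0.00396) was the lowest of all 36 members.

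The other 12 mitochondrial genes did not pass the test. MARS2 (methionine) was higher in every circAASS library, with 0.691, 0.660 and 0.657 RPKM against 0.440, 0.506 and 0.581 RPKM with empty vector, but the log2 fold change, 0.41 ± 0.14 (SE), missed the threshold (limma adjusted p = 0.0653), with 60 to 116 reads per library. VARS2 (valine) averaged 3.53 RPKM with circAASS and 4.27 RPKM with empty vector, and AARS2 (alanine) 4.31 RPKM with circAASS and 5.28 RPKM with empty vector. Both were lower in every circAASS library (log2 fold changes -0.20 and -0.22, limma adjusted p = 0.0726 and 0.0734), and passed under some alternatives; 22.0% of the exon bases of VARS2 overlap another gene. IARS2, the most highly expressed mitochondrial member, had 27.1, 29.5 and 29.3 RPKM with circAASS and 31.3, 30.9 and 32.6 RPKM with empty vector, and LARS2 (leucine) averaged 2.58 RPKM with circAASS and 2.99 RPKM with empty vector. Their RPKM did not overlap either, yet the scaled log2 fold changes were -0.07 and -0.13 (limma adjusted p = 0.296 and 0.251).

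CARS2 (cysteine), SARS2 (serine), WARS2 (tryptophan), FARS2 (phenylalanine), RARS2 (arginine), EARS2 (glutamate) and PARS2 (proline) had overlapping groups. Their log2 fold changes ran from -0.42 in PARS2 to 0.24 in CARS2, with limma adjusted p from 0.143 to 0.91. PARS2 had 0.355, 0.322 and 0.540 RPKM in circAASS libraries and 0.359, 0.777 and 0.731 RPKM in empty vector libraries, from 38 to 93 reads per library, and its libraries with the same plasmid differed widely. FARS2 was likewise uneven, with 1.21, 1.36 and 0.916 RPKM with circAASS and 0.867, 1.54 and 1.52 RPKM with empty vector. In SARS2 57.0% of the exon bases overlap other genes, MRPS12 among them, which leaves its reads uncertain.

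**Figure D3:**
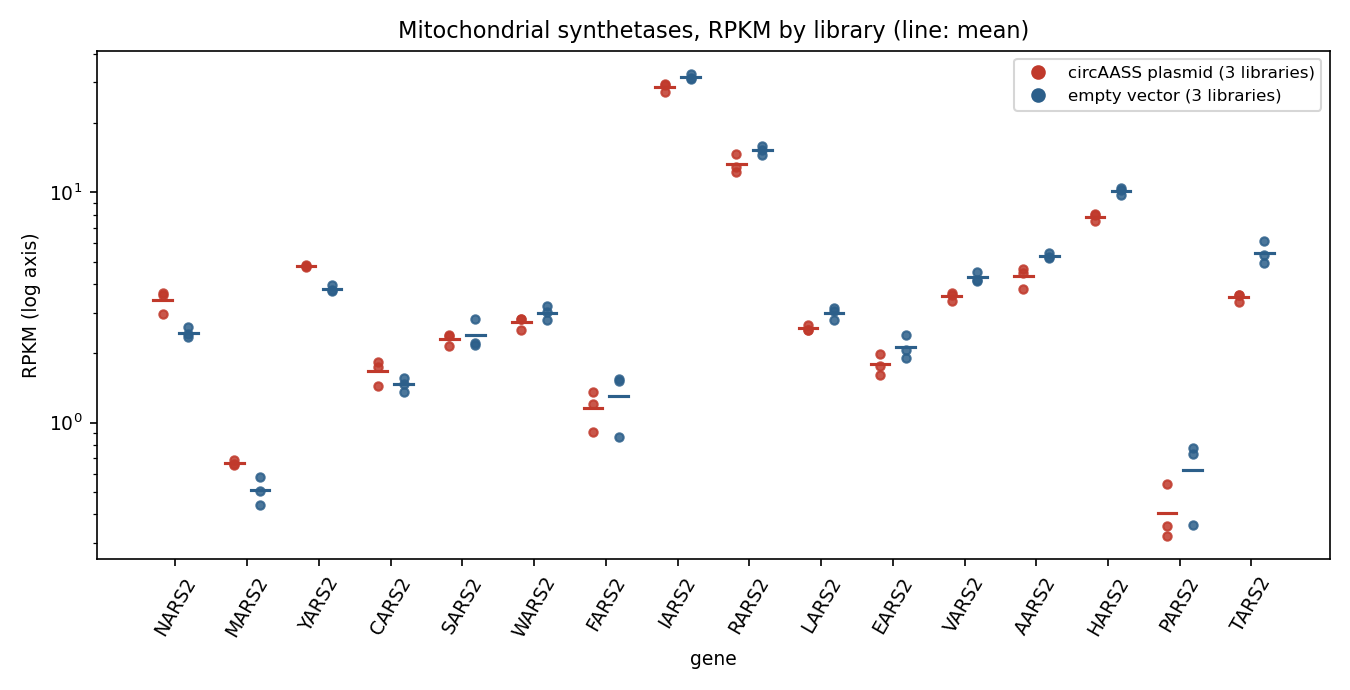
Deposited RPKM (log axis) of the 16 mitochondrial synthetases in each library, circAASS left of empty vector for each gene, with the mean as a line. NARS2 and YARS2 stand higher with circAASS, HARS2 and TARS2 lower, and PARS2 and FARS2 scatter most.

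HARS and HARS2, the cytosolic and mitochondrial histidine genes, lie head to head on chromosome 5 and moved in opposite directions. HARS (chr5:140673904-140691862) had 11.7, 12.4 and 12.3 RPKM in circAASS libraries, against 10.3, 10.4 and 10.9 RPKM in empty vector libraries. HARS2 (chr5:140691426-140699318) had 7.52, 8.03 and 7.96 RPKM with circAASS, against 10.2, 10.4 and 9.69 RPKM with empty vector. The groups overlapped in neither gene, and the log2 fold changes were 0.28 ± 0.05 for HARS and -0.29 ± 0.06 for HARS2 (SE, limma adjusted p = 0.00511 and 0.00746). Their annotated exons overlap in part on opposite strands. In all, 8.38% of the bases in HARS exons also belong to HARS2 or WDR55. Of the bases in HARS2 exons 15.8% also belong to HARS or ZMAT2, 11.7% on the opposite strand and 4.07% on the same strand. Reads in these bases are uncertain, because the use of strand in counting is not given in the sources used here. The RefSeq starts of the pair are separated by 84 bases at chr5:140691371-140691454 (GRCh38.p14, GC content 59.5%), shown on the strand of HARS2 because both genes start at its ends, with no part capitalised.
HARS to HARS2: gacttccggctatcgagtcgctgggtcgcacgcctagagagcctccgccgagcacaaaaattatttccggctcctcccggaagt

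For 16 amino acids cytosolic and mitochondrial genes could be set side by side within each library, as a ratio of RPKM that no scaling of the library can change. EPRS was the cytosolic gene for both glutamate and proline, so these pairs are not separate. For phenylalanine the mean log2 RPKM of FARSA and FARSB was used, though these genes changed in opposite directions. The ratio was higher in all circAASS libraries than in any empty vector library for 11 of the 16 amino acids, lower for 1 and overlapping for 4. No such share was worked out for ratios of other gene pairs. Among all tested genes taken singly, 47.5% did not overlap in deposited RPKM, 17.1% higher and 30.3% lower. The count of 11 is therefore a description and not a trait set apart from other genes. With 3 libraries against 3 the smallest two-sided exact permutation p is 0.1, or 0.133 after adjustment over the 16 pairs, so no pair can pass. Threonine had the largest difference, with TARS at 18.3, 20 and 20.9 times TARS2 in circAASS libraries and 7.80, 7.12 and 6.40 times in empty vector libraries, a log2 difference of 1.48 ± 0.10 (SE). The ratio for tryptophan was 6.17, 5.23 and 5.59 with circAASS and 3.72, 3.21 and 3.14 with empty vector, and for cysteine 7.89, 6.36 and 6.26 with circAASS and 4.55, 4.62 and 4.26 with empty vector. For histidine it was 1.56, 1.55 and 1.55 with circAASS and 1.01, 1.00 and 1.12 with empty vector, so HARS and HARS2 were near parity with empty vector alone.

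Isoleucine was the one amino acid whose mitochondrial gene exceeded the cytosolic gene. The ratio of IARS to IARS2 was 0.879, 0.884 and 0.889 with circAASS and 0.755, 0.763 and 0.755 with empty vector, without overlap and with very little spread. Serine, valine, glutamate, alanine, arginine and leucine also had higher ratios with circAASS without overlap, with log2 differences of 0.21 to 0.36. Tyrosine went the other way, with 3.86, 4.0 and 3.81 with circAASS and 4.19, 4.05 and 4.21 with empty vector, beside log2 fold changes of 0.30 for YARS and 0.39 for YARS2. Asparagine, proline, phenylalanine and methionine overlapped. Over the 16 amino acids the log2 fold changes of the cytosolic and mitochondrial genes had the same sign in 5. Their Pearson correlation was 0.19, a description over genes measured in the same libraries. EPRS entered both figures for glutamate and for proline, and FARSA and FARSB entered as their mean.

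**Figure D4:**
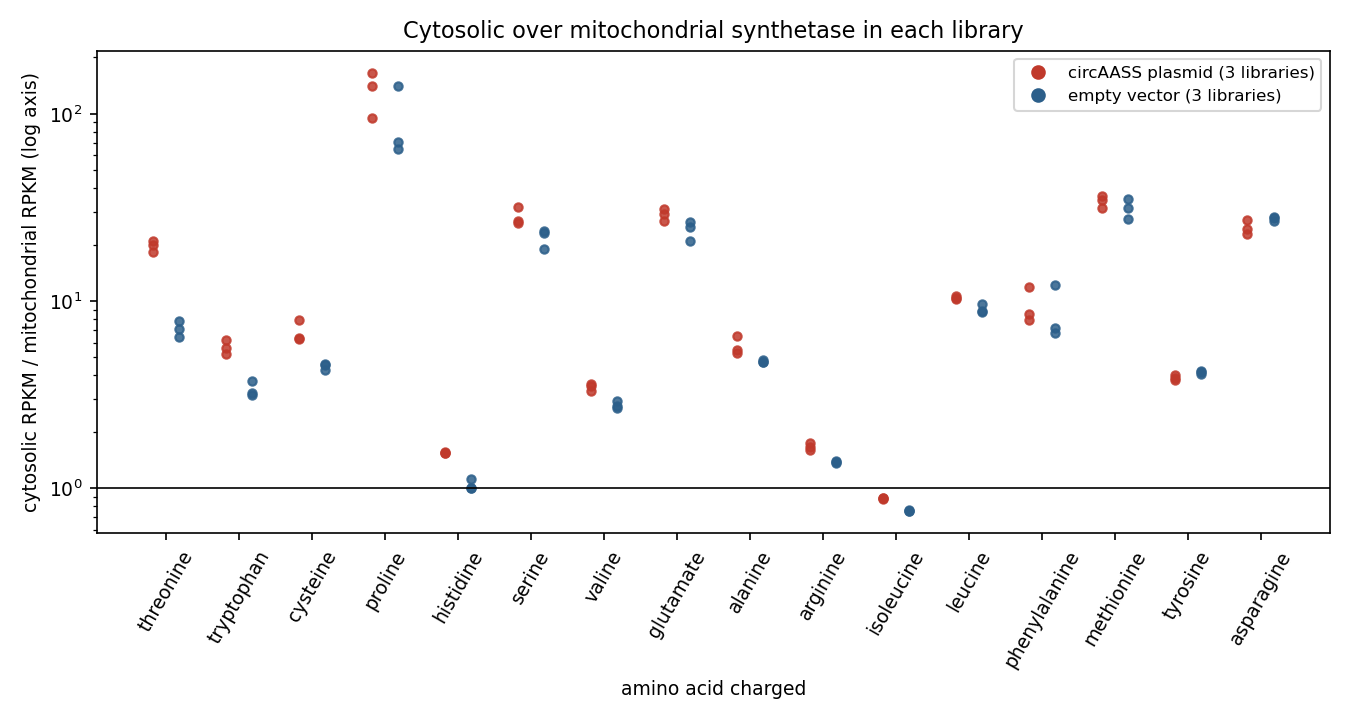
Ratio of cytosolic to mitochondrial RPKM for 16 amino acids in each library (log axis), circAASS beside empty vector. The groups are furthest apart for threonine, and isoleucine lies under a ratio of 1 in every library.

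Further synthetase-like genes outside the 36 were also measured. SEPSECS, which makes selenocysteine on its tRNA from the serine that SARS attaches, fell and averaged 0.190 ± 0.0274 RPKM with circAASS and 0.380 ± 0.0219 RPKM with empty vector (SD, n = 3 each; log2 fold change -0.68, limma adjusted p = 0.0149). TARSL2 (a second cytosolic threonine enzyme), AARSD1 (which edits mischarged alanine tRNA) and PSTK (the kinase acting before SEPSECS) had limma adjusted p = 0.408, 0.0547 and 0.218. Mitochondria make glutamine tRNA by an indirect route, charging it with glutamate through EARS2 and then amidating it. Of 5 genes for this step and for formylation of methionine tRNA, 1 rose (20%) and 0 fell (0 at an unadjusted p under 0.05, limma). The share that rose was near the 16.0% of all tested genes. QRSL1, the catalytic amidotransferase subunit, averaged 4.40 ± 0.285 RPKM with circAASS and 3.54 ± 0.178 RPKM with empty vector (SD, n = 3 each; log2 fold change 0.38 ± 0.07 SE, limma adjusted p = 0.00789). Its partners GATB and GATC, the formyltransferase gene MTFMT and the deformylase gene PDF did not pass, with log2 fold changes of -0.14 to 0.15 and adjusted p from 0.291 to 0.592.

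Among 23 genes of ATF4 and the integrated stress response, 16 (69.6%) rose and 0 fell (0 at an unadjusted p under 0.05, limma). Among all tested genes 16.0% rose and 16.3% fell. The median log2 fold change of the 23 genes was 0.39. ATF4 itself had 127, 145 and 137 RPKM in circAASS libraries and 104, 97.2 and 103 RPKM in empty vector libraries, with no overlap and a log2 fold change of 0.50 ± 0.06 (SE, limma adjusted p = 0.00111). The serine synthesis genes PHGDH and PSAT1 had log2 fold changes of 0.66 and 0.90 (limma adjusted p = 0.000341 and 0.000346). ASNS, which makes free asparagine and is not a tRNA synthetase, had 0.87 (adjusted p = 0.000433), with 44.6% of its exon bases overlapped by other genes. EIF2AK4, the kinase that senses uncharged tRNA, chosen here after its values were seen, averaged 4.55 RPKM with circAASS and 4.89 RPKM with empty vector (limma adjusted p = 0.788). This list and the cytosolic synthetases were chosen with earlier results of these data known, so neither is independent evidence for the other.

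**Figure D5:**
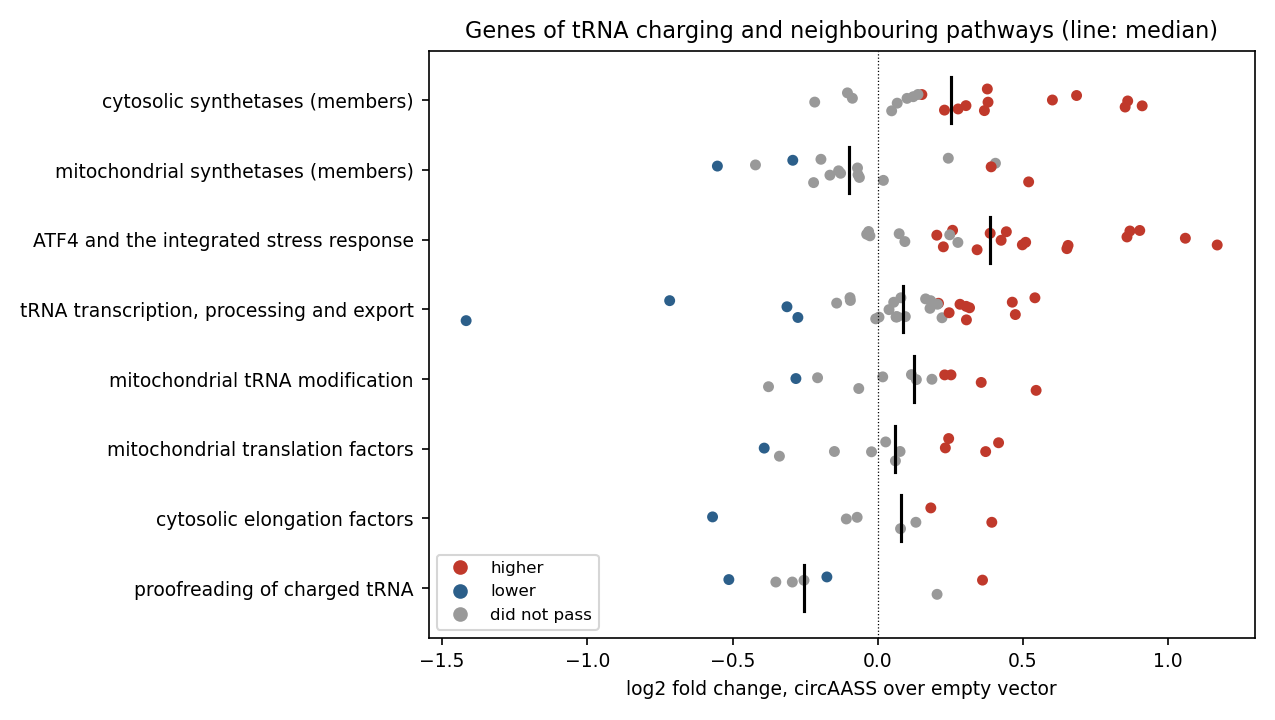
Log2 fold change of every tested gene (points) and the median (line) in the synthetase lists and the related lists. The medians are highest for the ATF4 list, at 0.39, and the cytosolic synthetases, at 0.25, and the mitochondrial synthetases lie at -0.10.

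Of 30 genes for tRNA transcription, processing and export, 9 rose (30%) and 4 fell (13.3%), and the median log2 fold change was 0.09. Over all tested genes 16.0% rose and 16.3% fell, so the share that fell was under that background. The 4 that fell were POLR3GL, ELAC1 and, named after their values were seen, POLR3B and BRF1. XPOT, which exports tRNA from the nucleus, averaged 32.7 ± 0.368 RPKM with circAASS and 24.9 ± 1.18 RPKM with empty vector, and the RNA polymerase III subunit gene POLR3K 10.9 ± 0.82 RPKM with circAASS and 7.81 ± 0.625 RPKM with empty vector (SD, n = 3 each). Both rose (limma adjusted p = 0.000992 and 0.00311). POLR3GL, another subunit gene of that polymerase, fell to 16.3 ± 1.46 RPKM with circAASS, against 28.1 ± 0.742 RPKM with empty vector (adjusted p = 0.00109), with 21.2% of its exon bases overlapped. ELAC1, an enzyme of tRNA 3′ end processing and repair, fell to 0.0947 RPKM with circAASS, against 0.427 RPKM with empty vector (adjusted p = 0.00267). This call rested on few reads, with 28, 12 and 16 in circAASS libraries and 75, 88 and 89 in empty vector libraries.

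In the lists of elongation, mitochondrial translation, mitochondrial tRNA modification and proofreading genes, 3 of 7, 5 of 11, 5 of 12 and 3 of 7 genes were called, beside 32.3% of all tested genes. Of 7 cytosolic elongation genes, EEF1A2, which delivers charged tRNA to the ribosome, and EEF2 rose (log2 fold changes 0.39 and 0.18, limma adjusted p = 0.00421 and 0.0162), and EEF2K, the kinase that inhibits EEF2, fell (-0.57, adjusted p = 0.00353). Of 11 mitochondrial translation factors 4 rose and 1 fell. TUFM, the mitochondrial elongation factor that carries charged tRNA, averaged 69.7 ± 2.41 RPKM with circAASS and 62.4 ± 0.245 RPKM with empty vector (SD, n = 3 each; adjusted p = 0.00837), and the release factor genes MTRF1L and MTRF1 had log2 fold changes of 0.37 and 0.42 (adjusted p = 0.00834 and 0.0198). The initiation factor gene MTIF2 fell, with a log2 fold change of -0.39 (adjusted p = 0.00546). Of 12 genes for modification of mitochondrial tRNA, 4 rose and 1 fell (TRMT5, log2 fold change -0.28, limma adjusted p = 0.0315, named after its values were seen), the 4 smallest p being those of MTO1, TRMU, CDK5RAP1 and PUS1, with log2 fold changes of 0.23 to 0.55 (adjusted p from 0.0131 to 0.0234). Of 7 proofreading genes, the peptidyl-tRNA hydrolase PTRH2 rose (0.36, adjusted p = 0.00453), and DTD1 and DTD2, which remove D-amino acids and mischarged residues from tRNA, fell (-0.18 and -0.51, adjusted p = 0.0461 and 0.025).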

How the data were processed

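The table of RPKM values per gene was deposited by the authors. Per the submitters' processing notes, Trimmomatic 0.36, featureCounts, Subread 1.5.1, edgeR 3.12.1 and GRCh38 were used, and per the labels' protocols the mRNA kit was stranded. Which aligner, annotation version and strand setting were used is not given in the sources used here. Groups came from the sample titles. Whole reads were worked out with GENCODE 29 exon lengths. Of 24697 genes with a length, 90.6% came out whole within 0.02 reads, and for other genes, HARS and HARS2 included, the smallest fitting length was used. These reads set a filter (10 reads at the median library size in 3 libraries, 15 in all) and trimmed-mean factors (30% of ratios, 5% of levels) of 0.958 to 0.996 for circAASS and 1.02 to 1.04 for empty vector.

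limma 3.58.1 (R 4.3.3, trend and robust) tested log2(RPKM + 0.1) over all 6 libraries, two-sided, with Benjamini-Hochberg adjustment over 19349 genes and a threshold of 0.05; the code was tested on simulated data. This scale understates changes of low genes. Names that spreadsheet software had turned into dates (28 genes) were left out. Replicate libraries differed beyond counting noise. No member's transcript matched a gene at another locus over 200 bases at 95% identity. Members and lists were chosen with earlier results of these data known. All members are named, as are the scaffold, transamidation and further synthetase lists (a few results on list and marker genes are not reported here), ATF4 and up to 4 called genes with the smallest p of the other lists. Tables and figures used Python 3.11, numpy 2.4.6, pandas 2.3.3, scipy 1.17.1 and matplotlib 3.10.9.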

Additional observations from a re-analysis of the deposited data

How the results depend on the processing

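Of the 16 members called, 14 were called under all 15 alternatives, IARS and KARS being the exceptions named above. With library size as the sole scaling, the split over all tested genes was 2159 higher and 4023 lower beside 3091 and 3152, the median of all genes moved to -0.08, and 10 cytosolic genes were higher and 2 lower, with 4 mitochondrial genes lower. A mean of at least 1 RPKM gave 1 cytosolic gene and 4 mitochondrial genes lower, and array weights gave 1 cytosolic gene lower. With no filter 2086 genes were lower. Leaving out 1 library at a time gave 11 to 12 cytosolic genes higher, 0 lower, 2 mitochondrial genes higher and 2 to 4 lower (4 without circAASS library 2), with 2189 to 2790 of all genes higher and 2013 to 2905 lower (2013 without empty vector library 2). The promoter count was 8 with the 300-base window in place of 4.

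The sign turned in a few uncalled results. With library size alone AARS came to -0.025, LARS to -0.0056 and SARS2 to -0.050, and with a 1 RPKM minimum SARS2 to -0.0091. With 1 library left out at a time SARS2 ran from -0.048 to 0.14, FARS2 from -0.31 to 0.10 and the phenylalanine ratio from -0.030 to 0.41. No pairing of the libraries by replicate number was visible (correlations of same-numbered libraries 0.03, -0.07 and -0.01). Deviations from a group mean of only 3 libraries cannot settle whether the libraries were paired. With the replicate block 2729 genes were higher and 2699 lower, 11 cytosolic genes were higher (IARS lost, adjusted p = 0.0784), 0 lower, and 2 mitochondrial genes moved each way. The members with the fewest reads were PARS2, with 38 to 93 per library, and MARS2, with 60 to 116.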
